A study of Drosophila melanogaster with 2 samples.

Results

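The mitochondrial ribosomal protein genes of Drosophila melanogaster were examined for binding of foxo, the fly's forkhead box O transcription factor. They were taken as every protein-coding gene whose symbol begins with mRpL or mRpS and a number in the Ensembl annotation of the dm6 genome, which gave 73 of 13945 protein-coding genes on the 6 major chromosome arms. Of the 73, 47 encode proteins named for the large subunit and 26 proteins named for the small subunit. The rule used names alone and no binding value, but the genes were chosen with earlier results of these data known. The genes tko and bonsai, which encode mitochondrial ribosomal proteins under other names, were not taken in by the rule and are described with the comparison genes.

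The study measured foxo by chromatin immunoprecipitation and sequencing (ChIP-seq), in which protein is crosslinked to DNA, precipitated with an antibody, and the attached DNA is sequenced. All chromatin came from 1 group of animals: whole larvae at the wandering stage of the third instar, males and females pooled, of a transgenic line in which foxo carries green fluorescent protein at its C-terminus, precipitated with an antibody against that tag. The 2 biological replicates are numbered 5 and 6. Because no other genotype, stage or treatment was included, no condition could be compared with another, and whole larvae mix all tissues, so a region bound in a few cells cannot be told apart from one bound weakly in many.

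Mitochondrial ribosomes translate the few proteins that the mitochondrial genome encodes, which are core subunits of the respiratory chain and the ATP synthase. Their RNAs come from mitochondrial DNA, but their proteins are made in the cytosol from nuclear genes scattered over the chromosomes and are then imported. Foxo is the transcription factor that insulin signalling keeps out of the nucleus, and in larvae it is known for restraining growth when nutrients are short.

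The sequences shown first are those under 3 of the foxo summits that passed the replicate comparison at these genes, taken from those whose window lies wholly between genes; not every such window is shown. Each spans 151 bases of the dm6 (Release 6) RefSeq genome on the strand of the named gene, with the summit, the point of highest signal, at base 76. Capitals mark TGTTTAC, a core of the forkhead box O recognition site; no other of the 7 motifs searched occurred in these windows. They come from chr2L:13835401-13835551 on the minus strand (mRpS23), chr3R:15229439-15229589 on the plus strand (mRpS10) and chr3R:31252629-31252779 on the plus strand (mRpL32).
mRpS23: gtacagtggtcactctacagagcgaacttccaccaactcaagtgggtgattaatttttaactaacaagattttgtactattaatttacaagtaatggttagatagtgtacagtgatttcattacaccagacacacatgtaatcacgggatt
mRpS10: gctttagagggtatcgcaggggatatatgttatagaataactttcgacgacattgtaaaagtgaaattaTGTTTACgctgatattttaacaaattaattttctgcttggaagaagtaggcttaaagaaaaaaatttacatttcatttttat
mRpL32: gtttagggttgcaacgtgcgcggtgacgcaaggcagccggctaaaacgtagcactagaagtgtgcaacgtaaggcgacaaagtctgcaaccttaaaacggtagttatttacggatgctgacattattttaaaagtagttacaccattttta
In mRpS10 the core filled bases 70 to 76, so that its last base was the summit itself. The mRpS23 window, under the highest signal at any of the 73 genes, held no copy of that core.

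A different sequence recurred at the starts of these genes. The 8 letters TATCGATA are the core of the DNA replication-related element (DRE), a promoter element of fly housekeeping genes that is bound by the factor Dref. It is shown in capitals with 10 bases to each side for the DRE-bearing genes among those with the highest foxo signal, each on the strand of its gene, at chr2L:13835064-13835091 (mRpS23, minus), chr3R:31252835-31252862 (mRpL32, plus), chr3L:13017860-13017887 (mRpL20, minus) and chr2L:16329096-16329123 (mRpL4, minus).
mRpS23: actctgatggTATCGATAggcaccggct
mRpL32: tctataaacaTATCGATAgcacagctgt
mRpL20: atcgatatttTATCGATAacatgctcat
mRpL4: taatctagccTATCGATAgaccttaccg
These matches began 9, 27 and 10 bases before the transcription start site (TSS) of mRpS23, mRpL32 and mRpL20 and 19 bases after that of mRpL4. Their distances to the pooled foxo summit were 399, 144, 230 and 111 bases in the same order. mRpS23 has a further copy that begins 209 bases before its TSS, at chr2L:13835264-13835291, 199 bases from the pooled summit.

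Other motifs fell inside the 75 bases to each side of an IDR summit at 3 genes, and those at mRpL23 and mRpS31 are shown with their flanks. These are an E-box, CACGTG, read by the growth regulator Myc, at chr3L:2373688-2373713 on the minus strand (mRpL23), and the site of the core promoter factor M1BP on the reverse strand, at chr3L:16004730-16004758 read on the plus strand (mRpS31).
mRpL23: ttggacaaccCACGTGcttttacacg
mRpS31: acgtgtgattAGTGTGACCgcggtggatg
The remaining one was a GAGA match near mRpL2. At mRpS31 the M1BP site lies beside the start of the divergent neighbour hzg, not beside that of mRpS31.

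Foxo regions were read from 4 deposited lists on dm6. The IDR list holds 1427 peaks that passed the irreproducible discovery rate, a comparison of how replicates rank their regions. A pooled list and 1 list for each replicate hold 30000 relaxed regions each, which include background by design. All 1427 IDR summits were among the same number of highest regions of the pooled list, so that an IDR peak here is a pooled region above a signal of 69.0. The signal is the authors' own value for each region, on a scale the sources do not state. It is used here to describe and rank regions within 1 list. Signals of the 2 replicates are also set side by side, though their lists may differ in scale. A gene was counted for a list that had a summit at most 1000 bp from 1 of its annotated TSSs. The read depth behind the regions is unknown.

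Strong foxo binding was found at a minority of mitochondrial ribosomal protein genes and weak regions at most. An IDR summit lay near 9 of 73 genes (12.3%), where the share over all protein-coding genes was 7.71%. A pooled relaxed region lay near 55 of 73 (75.3%, against 58.3% of all genes). Replicate 5 gave a region at 51 genes (69.9%, against 54.6%) and replicate 6 at 62 (84.9%, against 61.6%), and 47 had one in both (64.4%, against 43.6%). Among the 1427 highest regions of each replicate, taken to match the length of the IDR list, replicate 5 reached 8 of the genes (11.0%, against 7.44%) and replicate 6 reached 7 (9.59%, against 7.6%). All of these shares lay above those of all genes, by small margins in the top lists. With a q-value of at most 0.01 required, 20 genes kept a pooled region (27.4%, against 17.5%), 8 one in replicate 5 (11.0%, against 5.84%) and 32 one in replicate 6 (43.8%, against 30.2%). No test was made over the genes, since genes of 2 libraries are not replicates of a condition.

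The cytoplasmic ribosomal protein genes, which encode the ribosome of the cytosol, stood higher. Of 92 such genes, 26 had an IDR summit (28.3%) and 87 a pooled region (94.6%). Their median pooled signal was 50.9, where that of the 55 mitochondrial ribosomal protein genes with a pooled region was 35.5 and that of 8132 protein-coding genes with one was 33.1. Among 25 other genes for mitochondrial DNA maintenance, transcription and translation, 1 had an IDR summit (4.0%) and 19 a pooled region (76.0%). That 1 gene was SLIRP2, a relative of the mitochondrial RNA-binding protein SLIRP, with a pooled signal of 230 and a head-to-head neighbour of its own. The mitochondrial ribosomal protein gene tko had a pooled region of signal 19.8, and bonsai had none within 1000 bp in the pooled list.

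**Figure D1:**
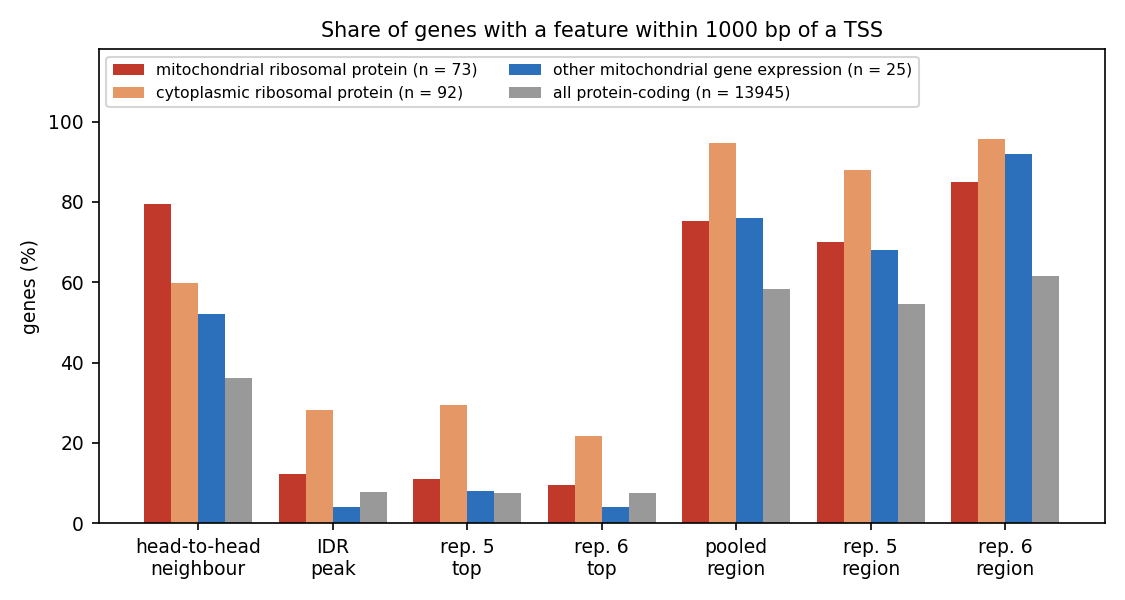
Percentage of genes (vertical axis, from 0) with a head-to-head neighbour or with a foxo summit of each list within 1000 bp of a TSS, for 4 gene groups; "top" is the 1427 highest regions of a replicate. The 73 mitochondrial ribosomal protein genes stand highest for head-to-head neighbours (79.5%) and between the cytoplasmic ribosomal protein genes and all genes for IDR peaks (12.3%).

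Mitochondrial ribosomal protein genes start close to another gene more often than protein-coding genes at large. Another protein-coding TSS lay within 1000 bp for 60 of 73 (82.2%, against 42.9% of all protein-coding genes). For 58 of 73 (79.5%, against 36.2%) that neighbour was head-to-head, meaning that the pair is transcribed away from each other from starts that share 1 upstream region. The distance between the nearest pair of starts ranged from 20 to 793 bp with a median of 283 bp, and 18 of the 58 pairs started within 100 bp of each other. A foxo summit in such a stretch lies near both genes, and its position alone does not assign it to either.

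All 9 IDR peaks lay at genes with a head-to-head neighbour. That made 9 of 58 (15.5%), where 11.8% of all protein-coding genes with a head-to-head neighbour had one. The difference was not tested. None of the other 15 mitochondrial ribosomal protein genes had an IDR summit, where 5.38% of all genes without such a neighbour did. These 15 genes are too few to show a lower share. Pooled regions were found at 47 of 58 genes with a head-to-head neighbour (81.0%, against 72.1%) and at 8 of 15 without (53.3%, against 50.5%). The median pooled signal was 40.6 over the former and 23.0 over the latter, where the same medians over all genes were 38.5 and 28.7.

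At genes with a head-to-head neighbour, foxo summits lay nearer to another gene's start more often than to that of the ribosomal protein gene. Of the 9 IDR summits, 2 were nearest to the ribosomal protein gene's own TSS and 7 to the neighbour's. Over all protein-coding genes with an IDR summit, 74.7% had it nearest to their own TSS, and over those with a head-to-head neighbour 57.3%. In the pooled list, the highest region was nearest to the own TSS for 15 of 47 genes with a head-to-head neighbour (31.9%, against 54.3%) and nearest to another gene's for 32. These counts include summits outside the stretch between the starts, such as the pooled summits of mRpS21 (971 bp upstream), mRpS16 (511 bp upstream) and mRpL55 (nearest to cdi, which is not its head-to-head neighbour).

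**Figure D2:**
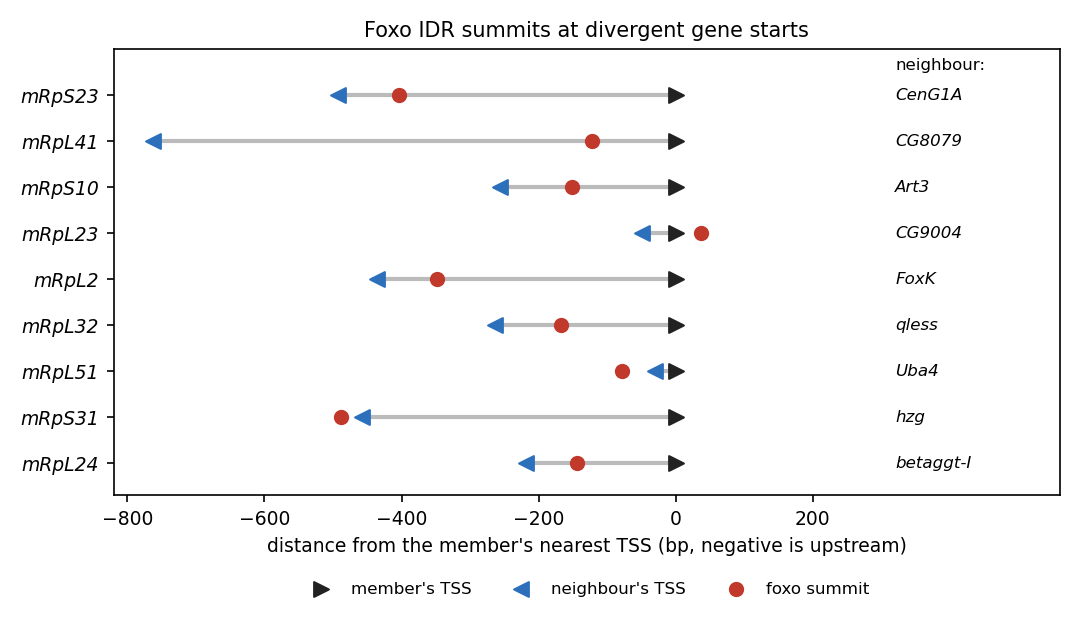
Position of the foxo IDR summit (red) and of the neighbour's TSS (blue, pointing left) relative to the TSS of each of the 9 mitochondrial ribosomal protein genes (black, at 0), in bp along the gene's own strand; the grey line joins both starts. The blue start is the neighbour's start nearest to the summit; measured this way the summit lies between the 2 starts in 6 of 9 pairs, in 5 of 9 when the nearest pair of starts is taken (mRpL2 differs), and nearer to the blue start in 7 of 9.

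Of the 3 small subunit genes with an IDR peak, mRpS23 and mRpS10 were among the 3 highest of all 73 genes and mRpS31 was weaker. mRpS23, a subunit with no bacterial counterpart, had the highest pooled signal of all 73 genes, 424, at rank 11 of 30000, with 203 in replicate 5 (rank 18) and 220 in replicate 6 (rank 8). Both replicates thus placed it among their highest regions. The peak covered chr2L:13835331-13835582, and its summit stood 404 bp upstream of mRpS23 but 88 bp upstream of CenG1A, which encodes a GTPase-activating protein for Arf proteins.

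mRpS10, the counterpart of bacterial ribosomal protein S10, had a pooled signal of 277 (rank 35), 167 in replicate 5 (rank 28) and 110 in replicate 6 (rank 77). Its peak at chr3R:15229401-15229624 had its summit 151 bp upstream of mRpS10 and 106 bp upstream of Art3, an arginine methyltransferase gene, on the forkhead core printed earlier. mRpS31, a mitochondria-specific subunit, was weaker, at 83.6 in the pooled list, 39.0 in replicate 5 and 42.5 in replicate 6. Its summit fell 489 bp upstream of the gene and 32 bp downstream of the start of hzg, outside the stretch between the starts, at chr3L:16004514-16004893.

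Among large subunit genes, mRpL41, another mitochondria-specific subunit, had the highest signal, 318 in the pooled list (rank 25), 183 in replicate 5 (rank 22) and 140 in replicate 6 (rank 38). Its summit was 122 bp upstream of the gene and 640 bp from its neighbour CG8079, the farthest of the 9 from a neighbour's start. The peak covered chr2R:15217614-15217890. mRpL23, whose bacterial counterpart sits at the exit of the peptide tunnel, had 175 in the pooled list (rank 127), 87.7 in replicate 5 and 84.9 in replicate 6. Its summit at chr3L:2373504-2373690 lay 37 bp downstream of 1 of its starts and 87 bp from that of CG9004. The starts of that pair are only 24 bp apart at their nearest.

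The other 4 were mRpL2, mRpL32, mRpL51 and mRpL24, with pooled signals of 94.9, 93.1, 86.1 and 70.5. Their peaks covered chr3L:11120309-11120688, chr3R:31252514-31252893, chr2L:8517269-8517648 and chr2L:4945315-4945694 in that order. mRpL2, the counterpart of a protein near the bacterial peptidyl transferase centre, was the least even between replicates, with 57.6 in replicate 5 (rank 416) and 32.5 in replicate 6 (rank 2714). Its summit was 348 bp upstream and 88 bp from a start of FoxK, a gene for another forkhead protein, which has a further start 64 bp from mRpL2, so that the summit lies inside FoxK by that start. mRpL32 had 58.9 and 49.6 in replicates 5 and 6, with its summit 168 bp upstream and 96 bp from qless, a gene for the synthesis of the coenzyme Q side chain. mRpL51 had 39.3 and 50.8, with its summit 79 bp upstream and 48 bp inside Uba4, whose start is 31 bp from that of mRpL51. mRpL24 had 28.5 (rank 2175) and 41.1 (rank 1541), with its summit 144 bp upstream and 74 bp from betaggt-I, which encodes a subunit of a protein prenyltransferase. mRpL24 was below the top 1427 of both replicates and mRpL2 below that of replicate 6, while the other 7 were in the top of each.

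**Figure D3:**
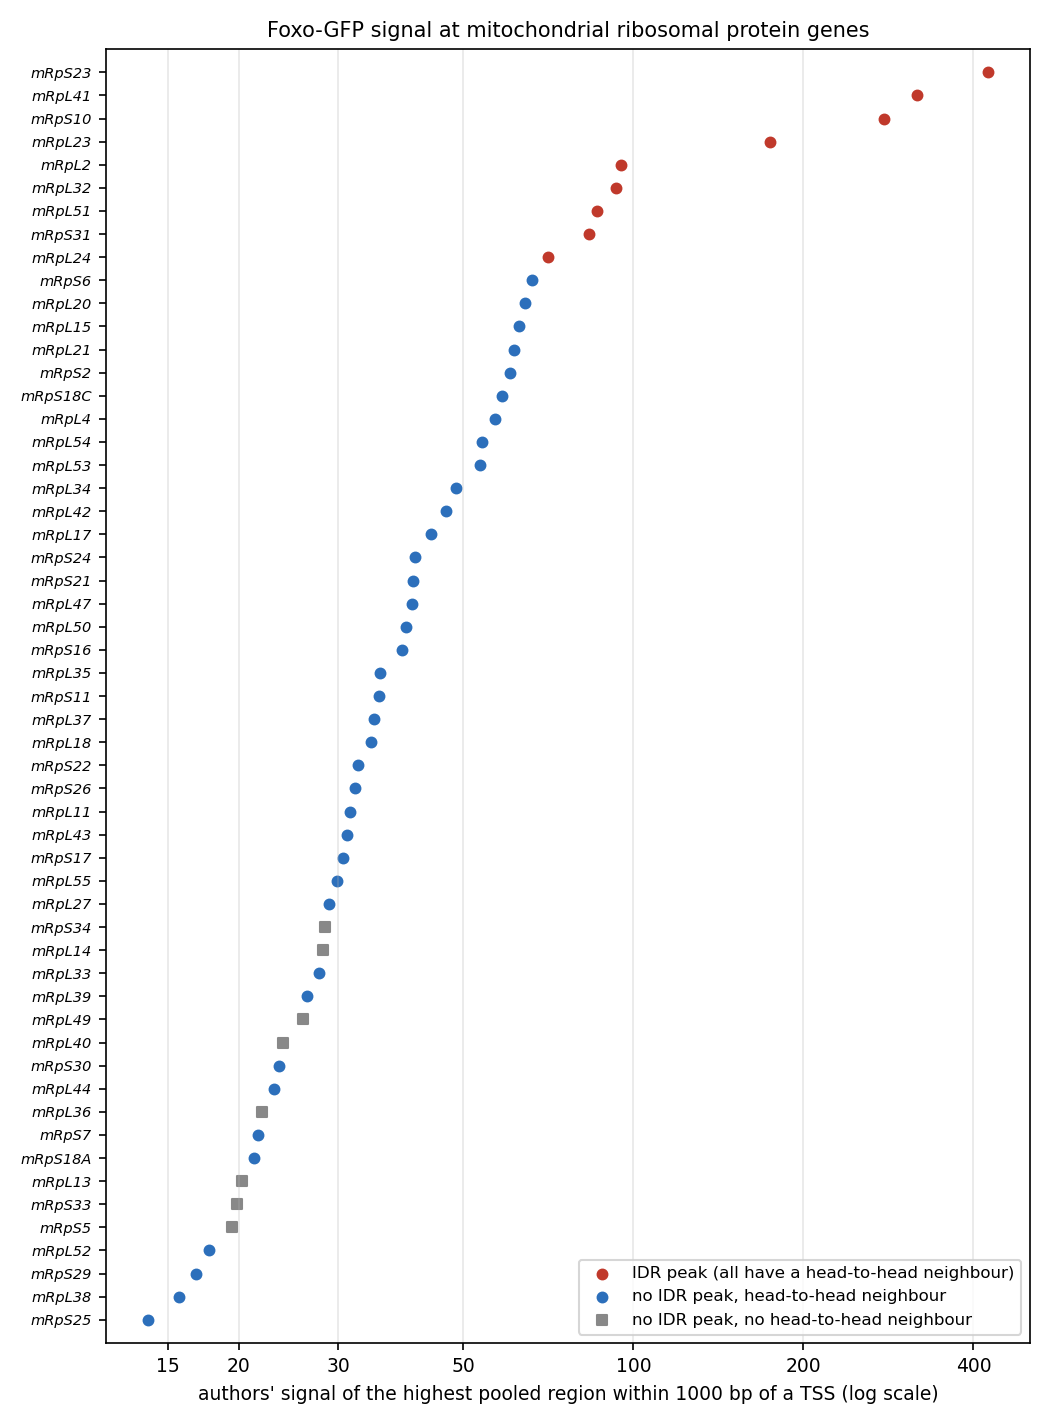
The authors' signal of the highest pooled region within 1000 bp of a TSS (horizontal, log scale) for the 55 of 73 mitochondrial ribosomal protein genes that had one, in order of signal. The signals range from 13.8 to 424; the 9 genes with an IDR peak (red) are the highest by construction, and the 8 genes without a head-to-head neighbour (grey squares) lie between 19.5 and 28.5.

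Below the IDR threshold the signals ran on without a gap. The 10 next genes by pooled signal were mRpS6 (66.1, rank 1592), mRpL20 (64.3), mRpL15 (62.7), mRpL21 (61.4), mRpS2 (60.5), mRpS18C (58.6), mRpL4 (56.8), mRpL54 (53.9), mRpL53 (53.6) and mRpL34 (48.5). All but mRpL54 and mRpL53 have bacterial counterparts, where 42 of all 73 genes are numbered like bacterial proteins. All 10 have a head-to-head neighbour, as do 58 of the 73 (79.5%). mRpS6 stood just under the threshold that mRpL24 just passed, and its summit lay 17 bp from its own start, 448 bp from that of Cip4. The pooled summit was nearest to the ribosomal protein gene also for mRpL15 (13 bp), mRpL21 (87 bp), mRpL4 (88 bp) and mRpL53 (33 bp, at a start it shares with CG33155). It was nearer to the neighbour for mRpL20 (Icmt, 163 bp), mRpS2 (Mon1, 31 bp), mRpS18C (CG15535, 12 bp), mRpL54 (CG15653, 96 bp) and mRpL34 (Dg, the dystroglycan gene, 172 bp).

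Genes of both subunits had similar shares. An IDR summit lay near 6 of 47 large subunit genes (12.8%) and 3 of 26 small subunit genes (11.5%), and a pooled region near 34 (72.3%) and 21 (80.8%). When the genes were divided, after their values were seen, into the 42 numbered like bacterial ribosomal proteins and the 31 of higher number that are largely specific to mitochondria, IDR summits lay near 5 (11.9%) and 4 (12.9%). The 3 genes for versions of protein S18 did not behave alike: mRpS18C had a pooled signal of 58.6, mRpS18A of 21.3, and mRpS18B had no pooled region within 1000 bp.

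Genes on the X chromosome had the lower signals. None of 11 genes on X had an IDR summit, where 5.24% of all X-linked protein-coding genes had one, and 6 of 11 had a pooled region (54.5%, against 54% of all X-linked genes). The median pooled signal of the 6 was 24.8, with 28.2 (mRpL14) as the highest, and that of 49 autosomal genes was 39.5. Over all protein-coding genes the same medians were 29.4 on X and 33.9 on autosomes. The 11 genes are too few to show a lower share.

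Replicate signals were compared at shared sites. At the pooled summits, within 150 bp, replicate 5 had a region for 44 of 55 genes, replicate 6 for 49 and both for 41. Over those 41 the signals of the replicates had a Spearman rho of 0.65, given as a description since all points share the 2 libraries. Taking for each gene the highest region of each replicate, rho was 0.51 over 47 genes and 0.54 over 6079 protein-coding genes. For 32 of the 47 both replicates placed that summit within 150 bp. This count and those at the pooled summits were not made over all genes. They therefore do not show whether the replicates agreed better or worse here than elsewhere.

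**Figure D4:**
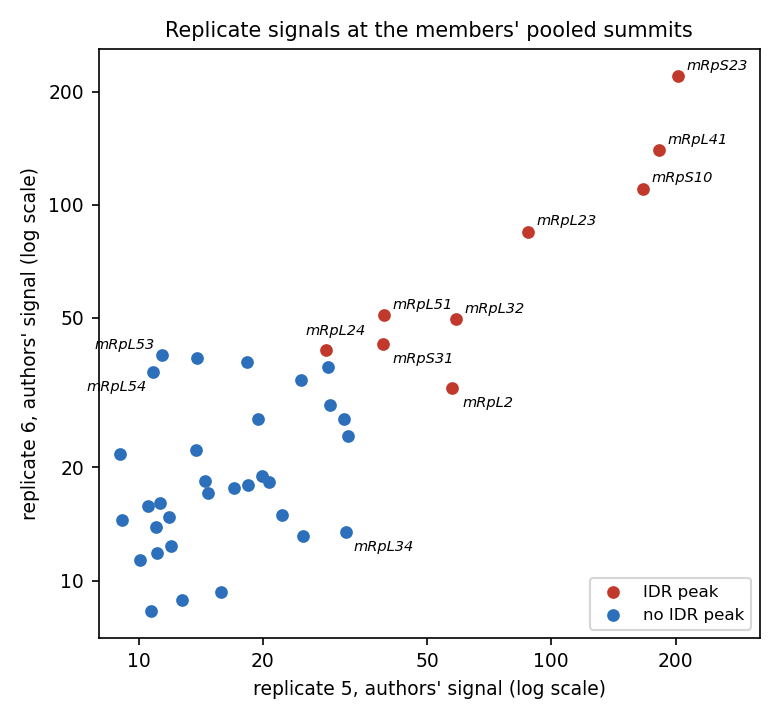
Authors' signal in replicate 5 (horizontal) against replicate 6 (vertical), both on log scales, at the pooled summits of the 41 mitochondrial ribosomal protein genes with a region of both replicates within 150 bp. The 9 genes with an IDR peak (red) run from 28.5 in replicate 5 (mRpL24) to 203 (mRpS23); mRpL53 and mRpL54 are high in replicate 6 and low in replicate 5, and mRpL34 the reverse.

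The 4 genes whose ranks differed most were all higher in replicate 6. mRpS26 had a signal of 9.09 in replicate 5 (rank 29553) and 34.2 in replicate 6 (rank 2403), and mRpL33 9.33 (rank 28215) and 34.4 (rank 2368). mRpL53 had 12.3 and 39.9, and mRpS11 9.01 (rank 29999) and 27.3 (rank 4005). The lowest replicate 5 signal near any protein-coding gene was 9.01. The replicate 5 values of mRpS26, mRpL33 and mRpS11 were thus near the bottom of a list that includes background. All values given are of the highest region of each replicate. Their summits lay 718, 308, 496 and 220 bp apart for the 4 genes in the order named. At the pooled summit itself, mRpL53 had 11.4 in replicate 5 (rank 19366) and 39.9 in replicate 6 (rank 1672). Its difference was thus about as large at 1 site. At its own pooled summit, mRpS26 had 9.09 (rank 29553) and 14.5 (rank 12125). For mRpL33 and mRpS11, replicate 5 had no region within 150 bp of the pooled summit, so their replicate 5 signals came from other sites.

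Over the 73 genes, 45 had a region in all 3 relaxed lists and 4 in none, namely mRpL1, mRpL12, mRpL48 and mRpS14. Of these 4, mRpL1, mRpL48 and mRpS14 have head-to-head neighbours, with starts 462, 41 and 21 bp away, so not every gene with such a neighbour had a region. A further 10 had a region in replicate 6 only, among them mRpL28 with 40.2 (rank 1638), mRpL10 with 33.4 and mRpS9 with 31.9. Another 2 had one in replicate 5 only, mRpL46 with 11.6 and mRpS28 with 10.6. Over all protein-coding genes, replicate 6 also reached more genes than replicate 5 (61.6% and 54.6%). How many of all genes had each of these patterns was not counted. mRpL3 and mRpS35 had a region in both replicates and none in the pooled list, and mRpL38, mRpL52 and mRpS33 in the pooled list only. The remaining 7 had a pooled region and 1 in a single replicate, 5 of them in replicate 6.

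Most pooled summits lay upstream of the starts at genes with a head-to-head neighbour. The median position of the highest pooled summit was 121 bp before the nearest TSS, and 47 of 55 lay upstream (85.5%), where 72.4% did over all protein-coding genes with a pooled region. With a head-to-head neighbour it was 44 of 47 (93.6%, against 76.5% of all such genes), and without one 3 of 8 (37.5%, against 69%). Within 250 bp were 39 of 55 (70.9%, against 56.6%). Within the 1000 bp limit, mRpS25 had the most distant nearest pooled summit, at 801 bp. Those of mRpS18B and mRpL10 lay just outside at 1013 and 1056 bp.

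Motifs were counted on both strands from 250 bases before to 50 after the 5′-most TSS of each gene, with the same windows of all 13945 protein-coding genes beside them. TATCGATA (DRE) occurred at 15 of 73 mitochondrial ribosomal protein genes (20.5%), at 9.36% of all genes, at 15.8% of all genes with a head-to-head neighbour and at 30.4% of cytoplasmic ribosomal protein genes. In all 15 a copy began within 100 bases of the TSS, at a median of 9 bases before it. GGTCACACT, bound by the fly factor M1BP, occurred at 8 (11.0%, against 6.05%) and TGTTTAC, the forkhead core, at 9 (12.3%, against 9.19%). CACGTG, an E-box, occurred at 5 (6.85%, against 4.2%) and GAGAGAG, read by GAGA factor, at 1 (1.37%, against 5.87%). Among genes with a head-to-head neighbour, M1BP occurred at 12.1% of mitochondrial ribosomal protein genes and at 10.4% of all genes. The forkhead core stood at 12.1% and 11.3% there, the E-box at 8.62% and 4.87%, and GAGA at 1.72% and 3.46%. Neither GCGCATGCG (NRF-1) nor CCGGAAG (Ets), each known from mammalian promoters of genes for mitochondrial proteins, occurred in any of the 73 windows, where 0.502% and 1.09% of all windows held them. With shares that low over all genes, 73 windows are too few to show a lower share. The median GC content of the windows was 34.7%, and 38% over all genes.

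**Figure D5:**
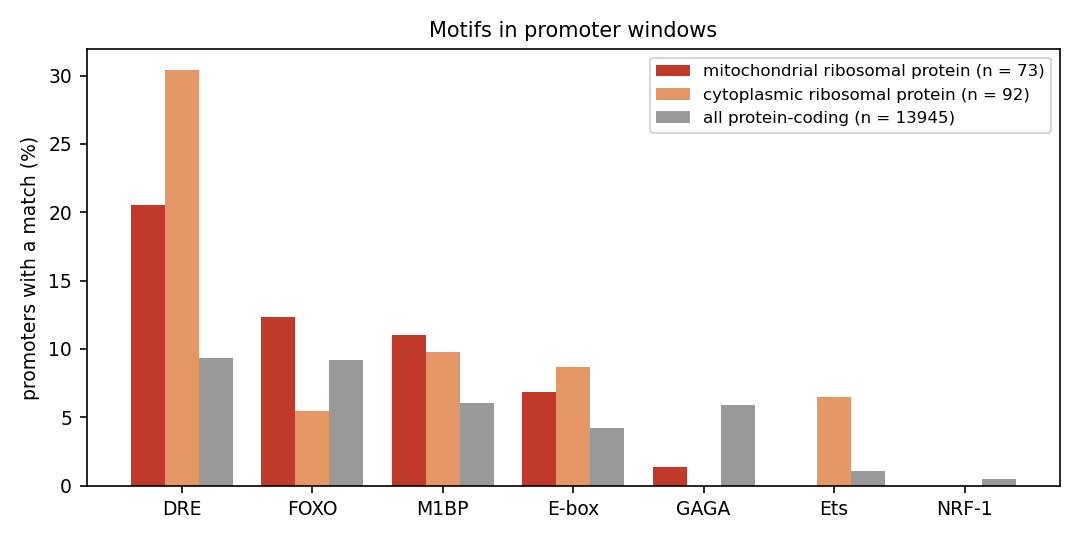
Percentage of promoter windows, from 250 bases before to 50 after the TSS, with at least 1 match to each of 7 motifs on either strand, for 3 gene groups. DRE is the most frequent at mitochondrial ribosomal protein genes (20.5%), above all genes (9.36%) and below cytoplasmic ribosomal protein genes (30.4%), while GAGA is less frequent than over all genes (1.37% and 5.87%).

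The motifs were also counted under the foxo summits. Within 100 bp of the highest pooled summit, DRE occurred at 2 of 55 genes (3.64%), where 6.62% of all genes with a pooled region had it. M1BP occurred at 2 (3.64%, against 3.25%) and GAGA at 2 (3.64%, against 5.76%). The forkhead core occurred at 3 of 55 (5.45%, against 7.24%), namely mRpS10, mRpL50 and mRpS25. E-boxes occurred at 5 (9.09%, against 2.68%), namely mRpL23, mRpL27, mRpL38, mRpS11 and mRpS25. The region of mRpS25 (signal 13.8, rank 29707) was near the bottom of the pooled list, which includes background. That of mRpL38 was also low (15.7, rank 24691), with no region in either replicate. The pooled signals of mRpS10, mRpL50, mRpL23, mRpL27 and mRpS11 were 277, 39.5, 175, 28.9 and 35.5. The shares over all genes also take in low regions, down to a signal of 13.7. A pooled region was present at 8 of 15 genes with a DRE (53.3%) and at 47 of 58 without (81.0%), while over all genes the order was the other way, 76.8% with and 56.4% without. The genes with and without a DRE had IDR summits at like shares (13.3% and 12.1%). Over only the 8 and 47 of them with a pooled region, the median pooled signals were 50.4 and 34.7, the higher with a DRE. None of these differences was tested. A match says only that the letters are present, and no match says only that they are absent from the window searched.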

How the data were processed

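Foxo ChIP-seq regions of 2 biological replicates, numbered 5 and 6 in the labels, were analysed as 1 group. The authors deposited a list of regions per replicate, a list from the pooled replicates and an IDR list, all on dm6 and all made against a control library, per the notes deposited with them. The deposited values are a signal per region, of unstated scale, and the −log10 of a q-value; the summit offset was used for positions. The aligner, the peak caller and the read depth are not given in the sources used here, so no interval or floor is given. The deposited dm3 lists and the control library were not analysed here.

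Summits were assigned to all TSSs of protein-coding genes of Ensembl release 115 within 1000 bp with Python 3.11.15, pandas 2.3.3 and NumPy 2.4.6, and the region of highest signal was taken per gene and list. The assignment was tested on simulated data with known distances. Sequences came from the RefSeq Release 6 genome. The genes and comparison lists were chosen with earlier results of these data known, and 25 of 29 names of the mitochondrial gene expression list matched. Named were all genes with an IDR summit, the 10 next by pooled signal, the 4 with the largest rank difference between replicates and their neighbours; other genes were named after their values were seen. Alternatives changed the distance, the part of a region that counts, the TSSs, the list depth, the q-value, the replicate and the neighbour rule.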

Additional observations from a re-analysis of the deposited data

How the results depend on the processing

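Of 45 values under alternative settings, 33 stayed within 1.5 times the main count or, for the medians, within 1 SD of the medians of the 2 replicates. The 9 IDR genes fell to 0 when only the 13 genes with no other protein-coding TSS within 1000 bp were counted. Those 13 genes are too few to show a lower share. A q-value of at most 0.01 left 20 of the 55 genes with a pooled region, 8 of 51 in replicate 5 and 32 of 62 in replicate 6, and the upper 15000 regions of replicate 5 left 32. Without 1 replicate, the genes in the top list numbered 7 to 8 in place of 9, and the median rank of the genes' best regions was 6461 to 6607 in place of 6074. Shared promoters fell from 60 to 26 when starts had to lie within 250 bp. Moving the motif search from the promoter to 100 bp around the summit changed DRE from 15 to 2, M1BP from 8 to 2, the forkhead core from 9 to 3 and GAGA from 1 to 2; only the 55 genes with a pooled region have such a window. The cause of the other changes was not tested. No paired analysis was possible because there is 1 group. The relaxed lists have a fixed length of 30000 and include background, so a region there is weak evidence, and the control's part in any signal was not tested.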
